A study of Homo sapiens with 12 samples.

Results

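PITRM1, a peptidase of the mitochondrial matrix, was read here beside 9 further mitochondrial proteases or protease subunits. Among these 10 genes it had the largest fall after siRNA against POLR3A in HEK293T cells. The 10 genes (PITRM1, PMPCA, PMPCB, LONP1, CLPP, CLPX, YME1L1, AFG3L2, SPG7 and HTRA2) were drawn from 34318 genes with a matched transcript. PITRM1 was chosen by its counts in the siRNA experiment, for its fall, so its values there are a description with no test. Its log2 fold change was −4.09, beside −2.36 for the targeted gene POLR3A, a comparison that the choice of PITRM1 favours. The other 9 were listed by function. HEK293T is an established human embryonic kidney line that carries the SV40 large T antigen. The sample titles write this name in the siRNA experiment and leave out its final T in the ML60218 experiment. Poly(A) RNA of bulk cultures was sequenced as strand-specific libraries in 4 groups of 3. The siControl group received a control siRNA and the siPOLR3A group an siRNA against POLR3A, the largest subunit of RNA polymerase III (Pol III), both by lipid transfection, with harvest 2 days later. The DMSO group received the vehicle at 0.1% and the ML60218 group received ML60218, a small-molecule Pol III inhibitor, at 25 µM, both for 4 hours. The labels name no engineered allele in any group. Each experiment has its own controls, so the comparisons share no library. The siRNA sequences, and whether the replicates came from separate cultures, are not given in the sources used here, so p-values measure only the spread between these libraries, which may be technical.

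Most mitochondrial proteins are made in the cytosol with an N-terminal presequence that guides them through the outer and inner membranes. In the matrix the mitochondrial processing peptidase, a pair of PMPCA and the catalytic PMPCB, cuts the presequence off, and PITRM1 (also called PreP), a zinc peptidase of the M16 family, degrades the freed peptide and other short peptides such as amyloid beta. Misfolded and damaged proteins are removed by ATP-driven proteases: LONP1 and the CLPX-CLPP complex in the matrix, and in the inner membrane the i-AAA protease YME1L1, which faces the intermembrane space, and the m-AAA protease of AFG3L2 and SPG7, which faces the matrix. HTRA2 is a serine protease of the intermembrane space.

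The libraries held 37008325 to 49479476 estimated reads, and 5.38% to 9.73% of the matched reads came from the mitochondrial genome. POLR3A fell from a mean of 90.8 ± 3.56 (SD, n = 3) CPM (reads scaled to a common library size) in siControl to 17.6 ± 2.65 in siPOLR3A (log2 fold change −2.36, SE 0.108, adjusted p 1.94e-05 by edgeR). All 8 HEK293T markers examined exceeded 1 TPM (abundance scaled for transcript length) in all 12 libraries, summing to 654 to 696 TPM in siControl, 450 to 461 in siPOLR3A, 586 to 627 in DMSO and 648 to 723 in ML60218. Of 9 markers of blood, fibroblast, liver, endothelial and mature nephron cells, 7 stayed under 1 TPM in all libraries and PTPRC was listed at 0, while COL1A1 stood at 18.2 to 28.1 TPM. Summed, these 9 ranged from 20.8 to 22.8 TPM in siControl, 24.3 to 28.6 in siPOLR3A, 18.6 to 20.2 in DMSO and 19.5 to 21.5 in ML60218, and their part in the results was not tested.

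PITRM1 (ENSG00000107959) lies on the minus strand of GRCh38 chromosome 10, from 3137728 to 3172841. Its level was 141, 139 and 133 CPM in the siControl libraries and 7.66, 4.62 and 12.3 CPM in the siPOLR3A libraries. All 3 siPOLR3A libraries lay far below all 3 controls, 121 CPM apart at the nearest, and they differed among themselves more than the controls did in proportion to their mean. That spread holds for the annotated rows. With the 26 unannotated rows described below added, the same 3 libraries stood close together, at 26.1, 25.7 and 26.6 CPM. The mean went from 138 ± 4.27 to 8.18 ± 3.85 CPM (SD, n = 3), which is 94.1% lower and a log2 fold change of −4.09. These levels rest on 4728, 4998 and 5137 estimated reads in siControl and on 296, 171 and 421 in siPOLR3A. The log2 fold change was −3.80 without siPOLR3A replicate 2 and −4.48 without siPOLR3A replicate 3. In bulk RNA, fewer cells with the transcript and less of it per cell cannot be told apart.

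Since the siPOLR3A cells had received an siRNA designed against POLR3A, the sequence that POLR3A and PITRM1 share is shown as context. The longest run identical in their most abundant coding transcripts (ENST00000372371 and ENST00000224949, GENCODE 29) was 13 bases on the same strand and 13 bases with PITRM1 reversed and complemented. Both lie in coding sequence of both genes, the first in exon 18 of PITRM1 (GRCh38 chromosome 10, 3148002 to 3148014) and the second in exon 10 (3158967 to 3158979). The 29-base windows of the PITRM1 transcript around them follow, 5′ to 3′, with the shared run in capitals.
Same-strand run: agacatgaTGCAGCTATGGAGtgaaatat
Opposite-strand run: tctgggccCAATTCTCCCTTTtacaaagc
Runs of this length are common. Of 14300 protein-coding genes, 51.4% shared a same-strand run at least as long with POLR3A and 48.4% an opposite-strand run, and among the proteases CLPX shared 23 bases, YME1L1 19 and LONP1 15 on the same strand. A second sequence, the 6-base GAGGGA, had been counted in these data before and was searched here on the transcript strand only. PITRM1 was chosen from the same data, so its copies are a description with no test. Whether GAGGGA has any tie to the siRNA, whose sequence is not given, was not tested. ENST00000224949 held it 2 times, both in coding sequence, in exon 11 (chromosome 10, 3158133 to 3158138) and exon 17 (3148227 to 3148232), shown here in capitals within 30-base windows.
GAGGGA in exon 11: taatggctacacGAGGGAggcctactttag
GAGGGA in exon 17: aattgaagaccgGAGGGAtgagtgcttctc
At least 1 copy was present in 60.7% of 14301 coding transcripts and at least 2 in 32.5%. Of the other proteases, AFG3L2 held 3 copies, CLPP, CLPX, HTRA2, PMPCA and PMPCB 1 each, and LONP1, YME1L1 and SPG7 0. POLR3A itself held 2 copies, 1 in coding sequence and 1 after it. These counts describe letters in the transcripts and carry no statement on what binds there.

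The deposited table resolved PITRM1 into transcripts, and the fall was not even across them. In GENCODE 29 the gene has 11 annotated transcripts with a row in the table, 8 labelled protein coding and 3 labelled processed transcript. A further 26 rows have identifiers that are not in that release and stand between PITRM1 rows in the table. Of the 37 rows, 3 were at 0 in all libraries and 13 had a mean of at least 0.5 TPM in some group. A transcript estimate shares its reads with the other transcripts of the gene, and that error is not in the spreads given here.

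**Figure D1:**
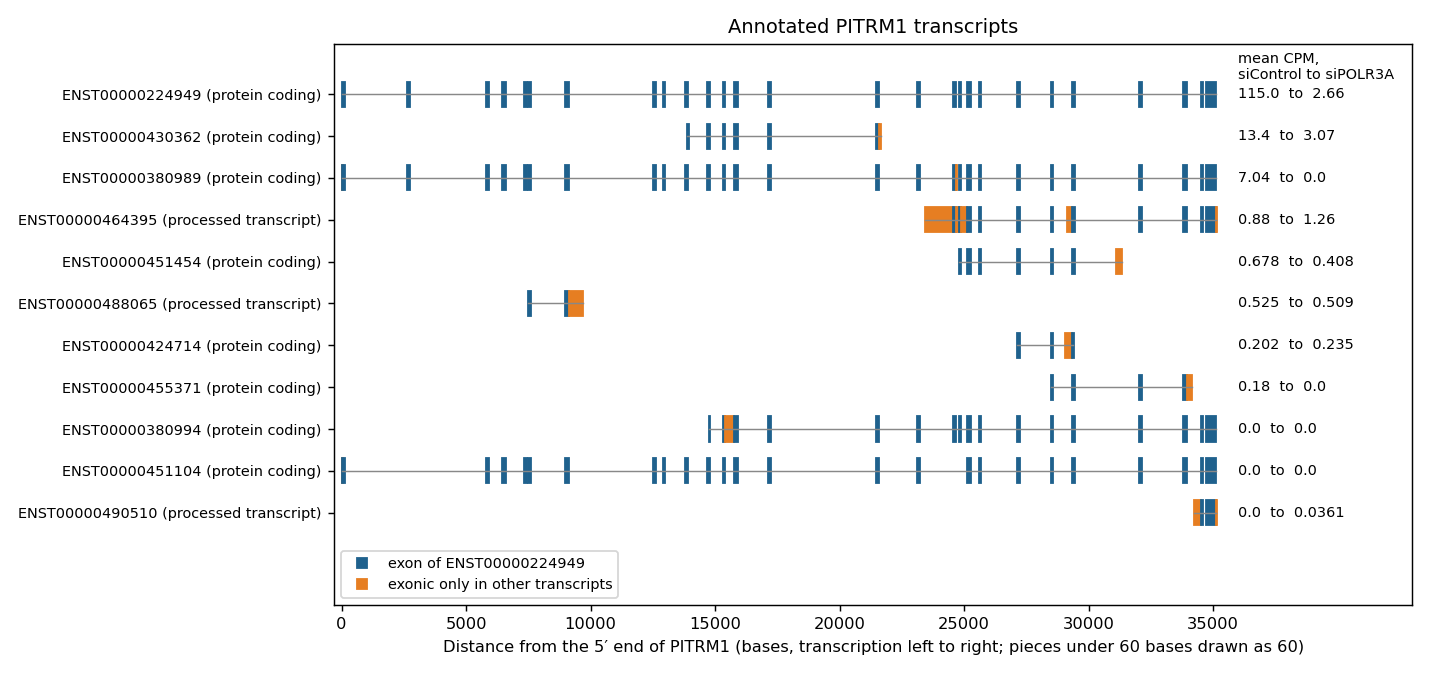
Exons of the 11 annotated PITRM1 transcripts against distance in bases from the gene's 5′ end, with mean CPM in siControl and siPOLR3A at the right; blue marks bases exonic in ENST00000224949 and orange bases exonic only in another transcript. ENST00000224949 goes from 115 to 2.66 CPM, while ENST00000488065 and ENST00000464395, which extend into its introns, have means of 0.509 to 1.26 CPM in siControl and siPOLR3A.

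ENST00000224949, the main coding transcript with 27 exons and 3111 coding bases, stood at 116, 115 and 115 CPM in siControl and at 2.93, 0 and 5.06 CPM in siPOLR3A. The means were 115 ± 0.471 and 2.66 ± 2.54 CPM, the second being 2.32% of the first, and siPOLR3A replicate 2 was listed at 0. Its share of the annotated PITRM1 TPM was 69.6%, 72.1% and 78.2% in siControl and 19.4%, 0% and 24.7% in siPOLR3A. ENST00000380989, a coding transcript that differs from it by 3 bases in an intron of the main form and 34 bases beyond its ends, went from 6.8, 7.37 and 6.95 CPM to being listed at 0 in all 3 siPOLR3A libraries. ENST00000430362, whose row has 1844 bases in the table against 718 in GENCODE 29, went from 15, 15.4 and 9.65 CPM to 2.24, 2.49 and 4.49 CPM, or 23% of its control mean. Every annotated coding form of more than 1 CPM in siControl was thus lower in all 3 siPOLR3A libraries, to different degrees.

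The 3 processed transcripts, which have no coding sequence, did not separate the groups. Together they stood at 2.85, 0.442 and 0.925 CPM in siControl and at 1.66, 1.58 and 2.17 CPM in siPOLR3A, so the groups overlapped. ENST00000464395, with 1694 of its 3240 bases inside introns of the main form, was at 2.17, 0 and 0.467 CPM in siControl and at 1.18, 0.889 and 1.71 in siPOLR3A. ENST00000488065, with 593 bases inside those introns, had means of 0.525 ± 0.13 and 0.509 ± 0.165 CPM.

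The 26 rows without annotation in GENCODE 29 summed to 18.2, 22.8 and 27.9 CPM in siControl and to 18.5, 21.1 and 14.3 CPM in siPOLR3A. These groups overlapped, and the siPOLR3A mean was 78.3% of the control mean, against 5.93% for the 11 annotated rows. Among them ENST00000678986, a row of 5110 bases, went from a mean of 8.72 ± 0.352 to 5.66 ± 1.27 CPM, and ENST00000678050, of 5703 bases, from 3.83 ± 0.34 to 3.33 ± 0.676 CPM. ENST00000678436 was higher on average after the siRNA, at 0, 0 and 2.81 CPM in siControl and 3.98, 4.16 and 2.16 in siPOLR3A. The rows without annotation therefore held 11.4%, 14.1% and 17.3% of all PITRM1 reads in siControl and 70.7%, 82.1% and 53.9% in siPOLR3A.

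How far PITRM1 fell depends on which rows are summed. With all 37 rows it stood at 159.7, 162 and 161 CPM in siControl and at 26.1, 25.7 and 26.6 CPM in siPOLR3A, a log2 ratio of −2.62 and 16.3% of control. With an offset for the length of the isoforms present, the annotated rows gave −3.25. The siPOLR3A libraries were the lowest 3 of the 12 whether 11 or 37 rows were summed. What the 26 rows code for was not analysed here.

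**Figure D2:**
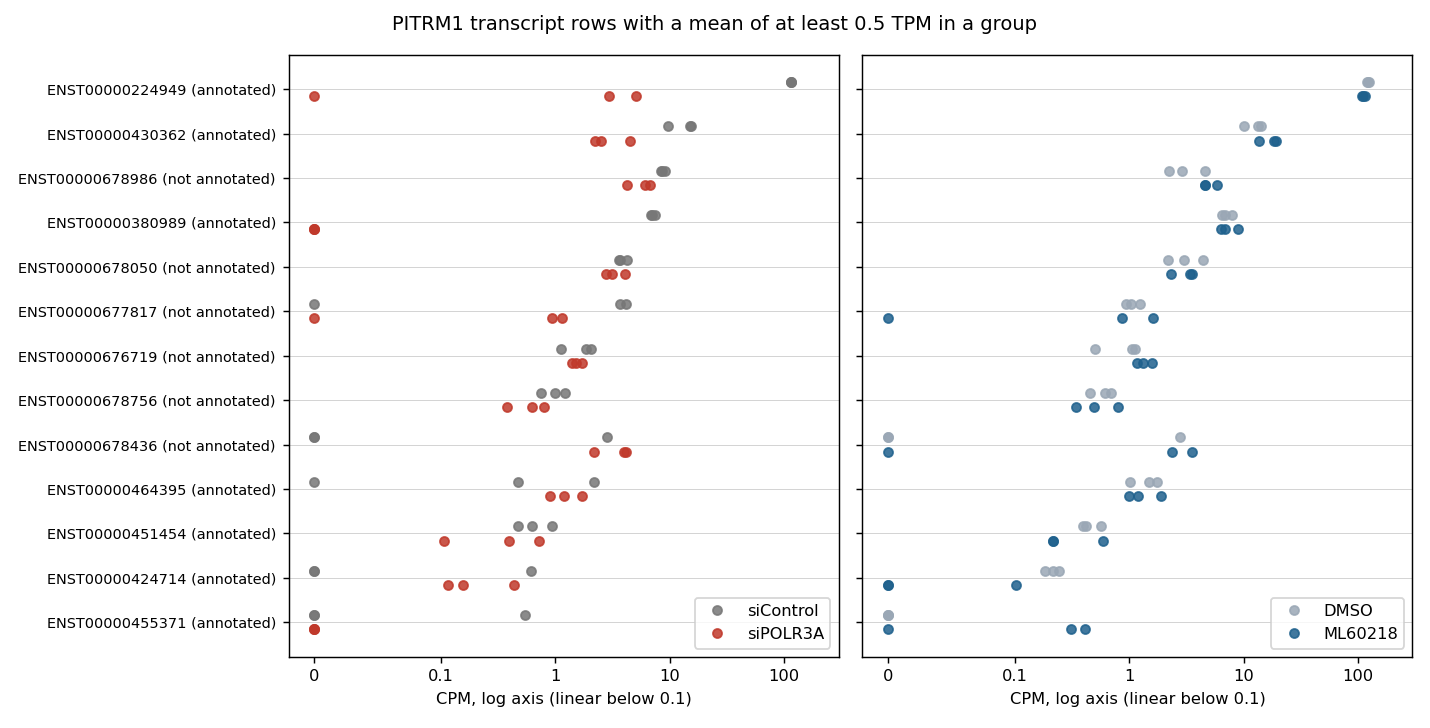
CPM of the 13 PITRM1 transcript rows with a mean of at least 0.5 TPM in a group, on an axis that is logarithmic above 0.1 and linear below; each point is a library, siControl and siPOLR3A on the left, DMSO and ML60218 on the right. ENST00000224949 separates siControl from siPOLR3A by far, and most rows without annotation do not; the same transcript is at 120.5 to 126 CPM in DMSO and at 109 to 116 in ML60218.

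After siPOLR3A, 7 of the 9 other proteases passed the test (edgeR's quasi-likelihood test, Benjamini-Hochberg adjusted p under 0.05 over all genes), LONP1, SPG7, HTRA2 and PMPCA higher and CLPP, CLPX and PMPCB lower. The same call was made for 56.6% of the 15404 genes tested (27.4% higher, 29.2% lower), and against that background 77.8% of 9 genes is no result particular to the proteases. Their log2 fold changes ran from −0.29 to 0.31, with a median of −0.029 against 0.005 for all genes and a median size of 0.205 against 0.229. The groups did not overlap for the 7 called genes, as was the case for 63.4% of all genes tested. None of these 9 genes thus moved by more than 0.31 on the log2 scale in either direction, though LONP1 was at 0.37 with upper quartile scaling. Other mitochondrial proteases read below moved further, METAP1D (−0.56) and OMA1 (−0.39) down and PARL (0.32) up.

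**Figure D3:**
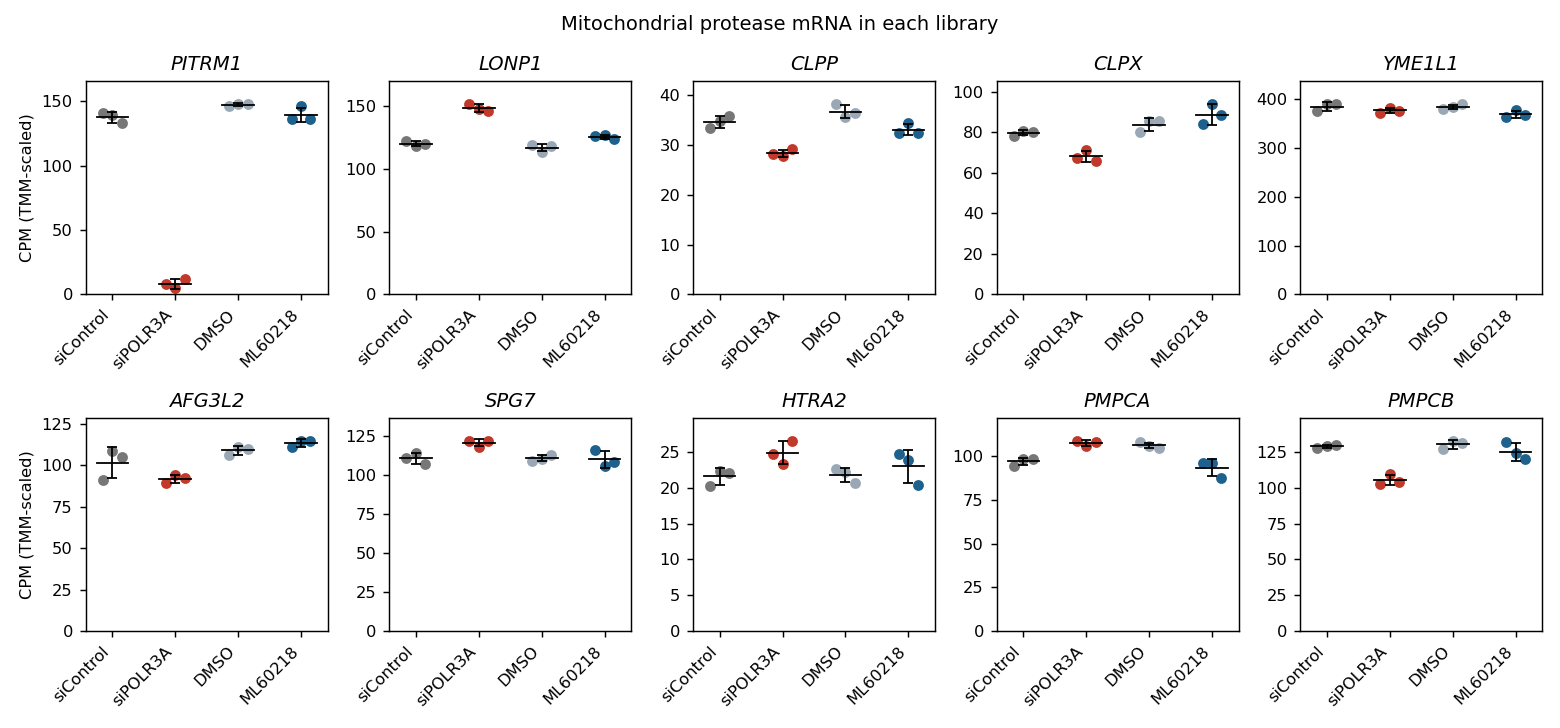
CPM of the 10 protease genes in each of the 12 libraries (points), with the mean (line) and SD (bar, n = 3), each vertical axis starting at 0. The siPOLR3A libraries of PITRM1 lie at 4.62 to 12.3 CPM against 133 to 148 in siControl and DMSO, while the other genes shift by 23.9% of the control mean at most.

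The subunits of the processing peptidase moved in opposite directions. PMPCA, the non-catalytic subunit (ENSG00000165688, chromosome 9, 136410570 to 136423761), was at 94.7, 98.3 and 98.3 CPM in siControl and at 109, 106 and 108 CPM in siPOLR3A. It rose by 0.15 on the log2 scale (SE 0.028, adjusted p 0.00046). PMPCB, the catalytic subunit (ENSG00000105819, chromosome 7, 103297422 to 103329511), was at 128, 129 and 129.8 CPM in siControl and at 103, 109.8 and 104 CPM in siPOLR3A, a change of −0.29 (SE 0.0291, adjusted p 1.27e-06). For both genes every siPOLR3A library lay on the same side of every control. The most abundant PMPCB transcript, ENST00000428154, fell from 71.2 ± 3.43 to 51.8 ± 1.84 TPM (log2 fold change −0.49, SE 0.0414, adjusted p 0.00154).

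The proteases of the matrix also split. LONP1, an AAA+ protease of the matrix that degrades misfolded and oxidised proteins (ENSG00000196365, chromosome 19, 5691834 to 5720572), was at 122, 118 and 120.1 CPM in siControl and at 152, 148 and 146 CPM in siPOLR3A. This was the largest rise among the 9, 0.31 on the log2 scale (SE 0.0265, adjusted p 2.2e-07). CLPP, the proteolytic chamber (ENSG00000125656, chromosome 19, 6361452 to 6368910), was at 33.5, 34.8 and 35.8 CPM in siControl and at 28.2, 27.8 and 29.2 CPM in siPOLR3A, a change of −0.29 (SE 0.044, adjusted p 6.37e-05). CLPX, the unfoldase that feeds it (ENSG00000166855, chromosome 15, 65148219 to 65185342), was at 78.4, 80.9 and 80.1 CPM and then at 67.4, 71.3 and 65.9 CPM, a change of −0.23 (SE 0.0337, adjusted p 5.18e-05). The siRNA libraries of LONP1 were thus all above the controls, and those of both partners of the CLPXP protease all below. With an offset for isoform length the change of CLPX was −0.12 and no longer called (adjusted p 0.136).

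Of the inner-membrane proteases, only SPG7 was called among the 3 tested. YME1L1, which processes OPA1 and turns over small import and lipid-transfer proteins (ENSG00000136758, chromosome 10, 27110112 to 27155266), was at 375, 390.2 and 389 CPM in siControl and at 372, 382 and 376 CPM in siPOLR3A (log2 fold change −0.03, SE 0.0236, adjusted p 0.312). AFG3L2, the subunit that can form the m-AAA ring by itself (ENSG00000141385, chromosome 18, 12328944 to 12377314), was at 91, 109 and 105 CPM and then at 89.2, 94 and 92.7 CPM (−0.15, SE 0.0706, adjusted p 0.132). SPG7, also called paraplegin (ENSG00000197912, chromosome 16, 89490719 to 89557768), was at 111, 114 and 107 CPM and then at 122, 118 and 122 CPM, a rise of 0.13 (SE 0.0301, adjusted p 0.00183). The siControl and siPOLR3A libraries overlapped for YME1L1 and AFG3L2 but not for SPG7. AFG3L2 depended on siControl replicate 1, its lowest control: without that library the change was −0.22 and was called (adjusted p 7.02e-05), as it was with DESeq2 (0.0239) and with the neighbouring transcripts (2.03e-06).

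HTRA2, the intermembrane-space serine protease that binds the caspase inhibitor XIAP once released (ENSG00000115317, chromosome 2, 74529377 to 74533348), was at 20.3, 22.4 and 22.1 CPM in siControl and at 24.7, 23.4 and 26.6 CPM in siPOLR3A. It rose by 0.21 (SE 0.0593, adjusted p 0.00885), with all siPOLR3A libraries above all controls by at least 1.05 CPM. The call was lost without siPOLR3A replicate 3, the highest library (0.16, adjusted p 0.0559), and with an offset for isoform length (0.16, adjusted p 0.077).

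Below the gene level, 77 transcripts of these 9 genes were tested and 7 were called after siPOLR3A (3 higher, 4 lower), against 11.3% of all 69805 transcripts tested (4.87% higher, 6.43% lower). In SPG7, whose 96 rows include 33 labelled retained intron, the coding transcript ENST00000645818 went from 3.76, 3.66 and 2.69 TPM to being listed at 0 in all 3 siPOLR3A libraries. Its transcripts ENST00000611189 (2.85 to 4.63 TPM, adjusted p 0.00254) and ENST00000643668 (0.248 to 0.872 TPM, adjusted p 0.0289) rose. The PMPCA coding transcript ENST00000444897, at 1.17, 1.02 and 0.78 TPM in siControl, was also listed at 0 in all 3 siPOLR3A libraries. As for PITRM1, transcripts of a gene share reads in these estimates, also in rows listed at 0. That error is not in the adjusted p-values. In LONP1 the retained-intron transcript ENST00000591321 rose from 4.92 to 8.06 TPM (log2 fold change 0.68, SE 0.123, adjusted p 0.0213), and in CLPX the main coding transcript ENST00000300107 fell from 16.6 to 13.8 TPM (−0.30, SE 0.0373, adjusted p 0.00607).

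ML60218 for 4 hours left PITRM1 near its vehicle level. PITRM1 was at 146, 148 and 148 CPM in DMSO and at 136, 146 and 136 CPM in ML60218, with means of 147 ± 0.726 and 139 ± 5.64. The groups did not overlap, by 0.692 CPM, and ML60218 replicate 2 was nearest to the vehicle libraries. The log2 fold change was −0.08 (SE 0.0357), which did not pass the test (adjusted p 0.0982). Without ML60218 replicate 2 it was −0.12 and was called (adjusted p 0.0265). On the TPM scale, which corrects for length and is not scaled by TMM, the means were 56.8 ± 0.961 in DMSO and 60.5 ± 5.06 in ML60218, the opposite order with overlapping libraries.

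With ML60218 no annotated PITRM1 transcript passed edgeR's test. ENST00000224949 was at 126, 120.5 and 123 CPM in DMSO and at 111, 116 and 109 CPM in ML60218 (log2 fold change −0.15, SE 0.0423, adjusted p 0.142). Of 7 annotated transcripts tested, 0 were called by edgeR, 1 had an unadjusted p under 0.05, and DESeq2 called 1. Among all 70417 transcripts tested, 2.09% were called (0.817% higher, 1.28% lower). Over the 10 proteases 1 of 87 transcripts was called, the retained-intron transcript ENST00000644930 of SPG7, which was listed at 0 in DMSO and at 0.657, 0.398 and 0.559 TPM in ML60218. The 26 rows without annotation summed to 14.1, 13.4 and 10.6 CPM in DMSO and to 20.3, 16.1 and 16.7 CPM in ML60218, so that all 3 ML60218 libraries were higher. All 37 rows together overlapped, at means of 160 ± 1.43 and 157 ± 4.55 CPM.

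Of the 10 proteases, 3 were called with ML60218, LONP1 higher and CLPP and PMPCA lower, against 39% of the 15461 genes tested (18.1% higher, 20.9% lower). The share of 30% was thus no higher than in the background. The median size of the change over the 10 was 0.077 on the log2 scale, against 0.168 for all genes, and the largest was 0.19. The groups did not overlap for 5 of the 10 (PITRM1, LONP1, CLPP, YME1L1 and PMPCA), against 51.9% of all genes.

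**Figure D4:**
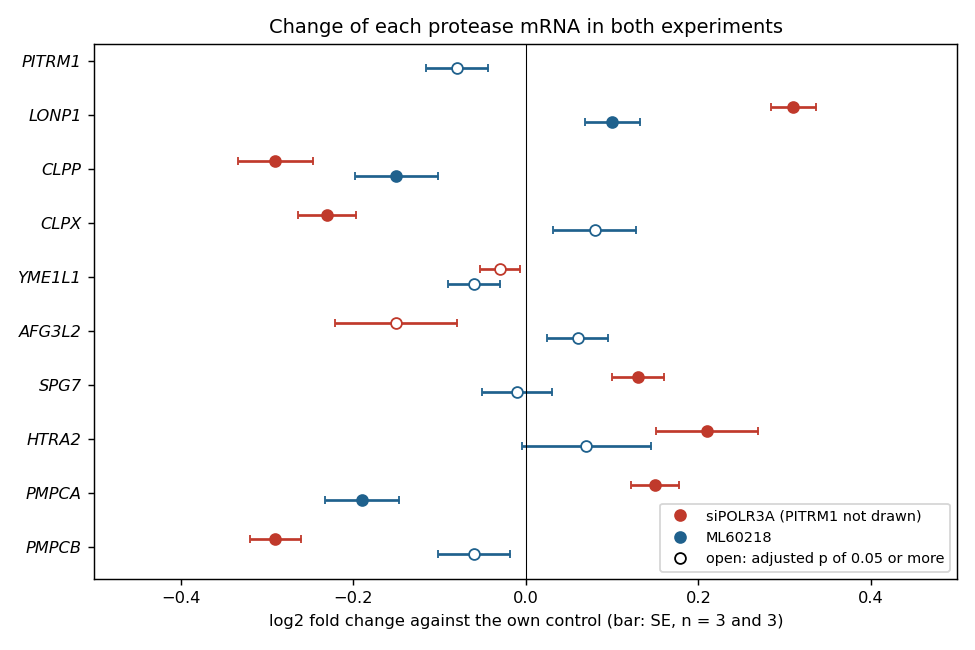
Log2 fold change (point) and SE (bar, n = 3 against 3) of each protease gene after siPOLR3A (red) and with ML60218 (blue), each against its own control; filled points passed an adjusted p of 0.05, and the siPOLR3A value of PITRM1 is not drawn. PMPCA is higher after siPOLR3A (0.15) and lower with ML60218 (−0.19), and 7 of the 9 siPOLR3A points but 3 of the 10 ML60218 points are filled.

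PMPCA fell with ML60218, from 108, 106 and 105 CPM in DMSO to 96.4, 96 and 87.7 CPM (log2 fold change −0.19, SE 0.0425, adjusted p 0.00602). LONP1 was at 119, 114 and 118 CPM in DMSO and at 126, 127 and 124 CPM in ML60218, a rise of 0.10 (SE 0.0319, adjusted p 0.0284). CLPP was at 38.3, 35.6 and 36.4 CPM and then at 32.5, 34.5 and 32.4 CPM, a change of −0.15 (SE 0.0484, adjusted p 0.0333). In each of these 3 genes all ML60218 libraries lay beyond all DMSO libraries. PMPCA stayed called under all 14 alternatives, at −0.12 with total counts (adjusted p 0.0334), while the other calls were weaker. LONP1 was not called without DMSO replicate 1, 2 or 3 (adjusted p 0.0706, 0.146 and 0.0739) or ML60218 replicate 2 (0.0714), nor was CLPP without DMSO replicate 1, 2 or 3 (0.144, 0.0596 and 0.0774) or ML60218 replicate 1 or 3 (0.0552 and 0.0797). Over all alternatives the LONP1 call was lost in 7 of 14, and its value was 0.17 with total counts (adjusted p 0.00348). The CLPP call was lost in 10 of 14, including with total counts (−0.08, adjusted p 0.248), the upper quartile (0.0923), DESeq2 (0.0698) and the isoform-length offset (0.118).

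The remaining 6 proteases did not pass the test with ML60218. PMPCB, the catalytic subunit of the processing peptidase, was at 127, 133 and 131 CPM in DMSO and at 132, 124 and 119.8 CPM in ML60218 (−0.06, adjusted p 0.3). CLPX was at 80.1, 85.4 and 85.8 CPM and then at 84, 94.1 and 88.4 CPM (0.08, adjusted p 0.196). YME1L1 was at 380, 383 and 389 CPM and then at 363, 377 and 368 CPM (−0.06, adjusted p 0.16). Of these only YME1L1 showed no overlap, and its change was 0.01 when scaled by total counts. AFG3L2 had means of 109 ± 2.87 and 114 ± 2.51 CPM (0.06, adjusted p 0.187), SPG7 of 111 ± 1.69 and 109.9 ± 5.45 CPM (−0.01, adjusted p 0.838) and HTRA2 of 21.8 ± 0.99 and 23 ± 2.25 CPM (0.07, adjusted p 0.481). AFG3L2 was called when scaled by total counts (0.13, adjusted p 0.0231) or by the upper quartile (0.10, adjusted p 0.0411), CLPX by total counts (0.16, adjusted p 0.0363), and PMPCB without ML60218 replicate 1 (−0.10, adjusted p 0.0445).

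The 2 effects were compared directly in a fit of all 12 libraries, in which PITRM1 was not tested. The difference, siPOLR3A effect minus ML60218 effect, passed the test for 6 of the 9 other proteases, against 50.9% of 15780 genes tested. PMPCA differed most, by 0.35 (SE 0.0504, adjusted p 3.21e-05), since it rose after the siRNA and fell with the inhibitor. LONP1 rose under both treatments, and by 0.21 more after the siRNA (SE 0.0396, adjusted p 0.000322). CLPX (−0.31, SE 0.0629, adjusted p 0.000743) and PMPCB (−0.22, SE 0.0517, adjusted p 0.00196) fell after the siRNA and were not called with the inhibitor. SPG7 differed by 0.15 (adjusted p 0.02) and AFG3L2 by −0.20 (adjusted p 0.0284). CLPP, lower in both experiments, had a difference of −0.14 that did not pass (adjusted p 0.0881). HTRA2 (0.14, adjusted p 0.269) and YME1L1 (0.03, adjusted p 0.493) did not pass either, but with neighbouring transcripts included the HTRA2 difference was 0.35 and was called (adjusted p 0.00043). The experiments also differ in time, 2 days against 4 hours, and in transfection, so the difference cannot be told apart from these. The sample titles write the cell name with its final T in the siRNA experiment only, and a difference in cells was not tested.

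Levels of different genes were compared per length, in TPM. In siControl YME1L1 was highest at 134 ± 2.54 TPM, followed by PMPCA at 104 ± 5.24 and PMPCB at 103 ± 3.02, whose libraries overlapped. CLPP at 68.1 ± 2.3 and LONP1 at 60.7 ± 3.12 came next. PITRM1 was the sixth at 53.5 ± 4.42 TPM and overlapped with SPG7 at 48.6 ± 3.75, which overlapped with AFG3L2 at 42 ± 5, which overlapped with CLPX at 41.2 ± 1.67. HTRA2 was lowest at 19.3 ± 0.527 TPM. In siPOLR3A PITRM1 was the last of the 10 at 5.6 ± 1.32 TPM, below HTRA2 at 22 ± 1.53 with no overlap, while in DMSO and in ML60218 it was again the sixth. Among the other genes, LONP1 and SPG7 stood above or level with CLPP after siPOLR3A, and PMPCB stood above PMPCA with ML60218.

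The genes whose log2 CPM followed PITRM1 most closely over the 12 libraries were MTARC2 (Pearson r 0.994), ZFAND6 (0.992), ANXA6 (0.990), HMGN1 (0.989) and MEAK7 (0.989), among 10293 protein-coding genes compared. The libraries share their scaling, and since the 3 siPOLR3A libraries stand apart for PITRM1 the value mostly ranks genes by whether those 3 are low. HMGN1, a nucleosome-binding protein, went from 486 ± 5.79 CPM in siControl to 175 ± 5.55 in siPOLR3A and was at 498 ± 6.18 in DMSO and 485 ± 23.7 in ML60218. ZFAND6 went from 60.8 ± 2.03 to 24.9 ± 1.95 CPM and ANXA6, a calcium-dependent membrane-binding annexin, from 115 ± 3.43 to 67.6 ± 3.86, with both near their vehicle level in ML60218. None of these 5 fell as far as PITRM1, which was itself chosen for its fall. POLR3A itself had r of 0.966 and was lower in ML60218 as well, at 86.5 ± 2.2 CPM against 113 ± 4.99 in DMSO. Of the proteases, PMPCB (0.912) and CLPP (0.902) had the highest r and LONP1 (−0.941) the lowest.

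The genes next to PITRM1 on chromosome 10 were read as well. PITRM1 was chosen for its fall after siPOLR3A, so their smaller changes beside it are a description, not a test. PFKP, the platelet phosphofructokinase, ends 16 bases from the 3′ end of PITRM1 on the opposite strand and was at 116, 112 and 110.1 CPM in siControl and at 106, 105 and 99.9 CPM in siPOLR3A (log2 fold change −0.12, SE 0.0309, adjusted p 0.00467). With ML60218 its change was −0.05 (adjusted p 0.298). The nearest tested gene on the other side, the transcription factor KLF6, lies 603155 bases away and changed by 0.10 after siPOLR3A (adjusted p 0.0304) and by 0.50 with ML60218 (adjusted p 0.0289). The antisense genes PITRM1-AS1 and ENSG00000278419 overlap PITRM1, and each had 0 matched rows, so neither was analysed here.

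Around the proteases, 64 genes in 7 lists were read in the same fits, of which 63 were tested and TIMM22 was listed at 0. After siPOLR3A 40 of the 63 were called (11 higher, 29 lower), or 63.5% against 56.6% of all genes, with a median log2 fold change of −0.096. With ML60218 36 were called (9 higher, 27 lower), or 57.1% against 39%, with a median of −0.082. Under the alternatives the count ranged from 34 to 43 after siPOLR3A and from 24 to 36 with ML60218, where total counts gave 27. By direction, the background was 27.4% higher and 29.2% lower of all genes after siPOLR3A, and 18.1% higher and 20.9% lower with ML60218. Of the lower calls, 12 of 29 after siPOLR3A and 14 of 27 with ML60218 were in the protein import list, which holds 20 of the 63 genes tested.

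**Figure D5:**
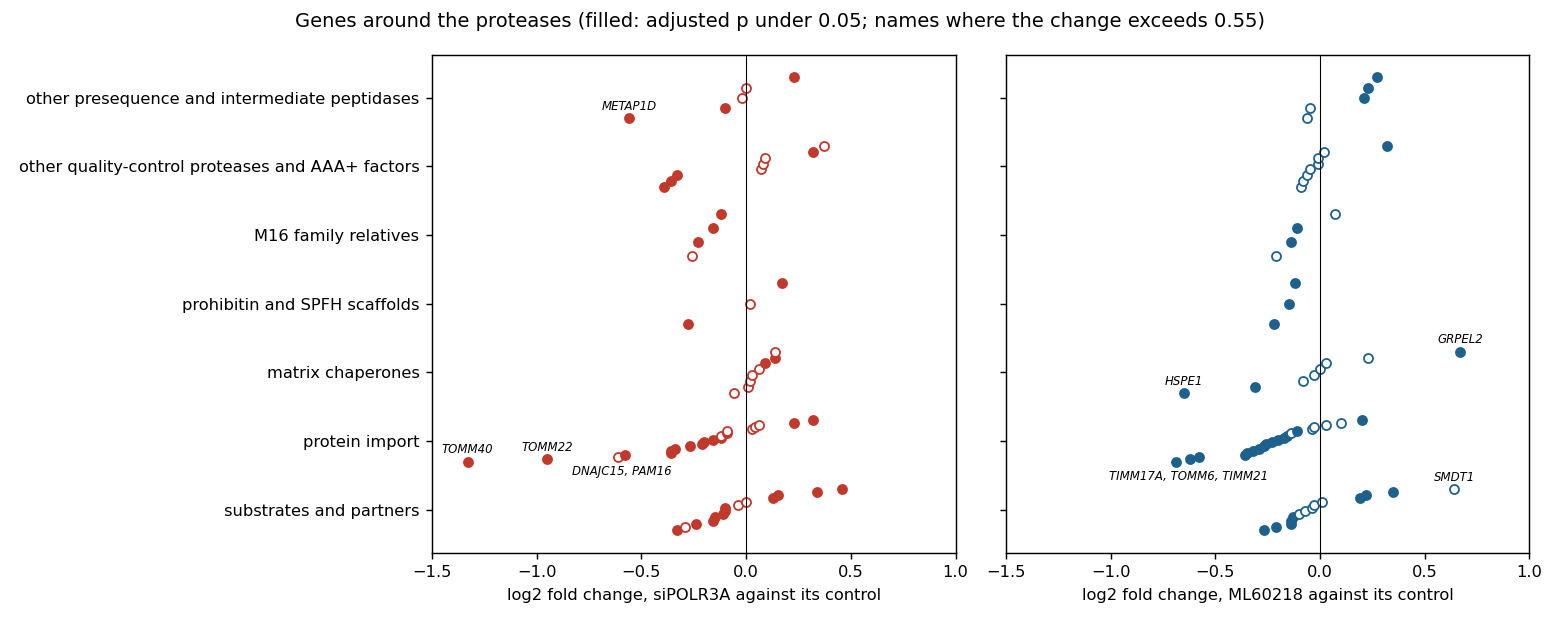
Log2 fold change of the genes in the 7 lists (1 not drawn) after siPOLR3A (left) and with ML60218 (right), with filled points for an adjusted p under 0.05 and names where the change exceeds 0.55. In protein import 12 of 20 points after siPOLR3A and 14 of 20 with ML60218 are called lower, and TOMM40 (−1.33) lies farthest out.

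Of 20 import genes tested, 12 were lower and 2 higher after siPOLR3A (median −0.183), and 14 were lower and 1 higher with ML60218 (median −0.212). Among all genes 29.2% were lower after siPOLR3A and 20.9% with ML60218. TOMM40, the channel of the outer membrane, fell from 96.5 ± 1.87 to 38.2 ± 1.41 CPM after siPOLR3A (log2 fold change −1.33, SE 0.0344, adjusted p 9.69e-13). TOMM22, its presequence receptor, fell from 139 ± 6.13 to 71.7 ± 1.02 CPM (−0.95, adjusted p 2.23e-11). The small intermembrane-space chaperones TIMM10 (0.32) and TIMM13 (0.23) rose. With ML60218 the largest falls were in TIMM17A, a subunit of the inner-membrane translocase (184 ± 1.98 to 114 ± 21.2 CPM, −0.69, adjusted p 0.0186), and TOMM6 (131 ± 0.95 to 85.7 ± 11 CPM, −0.62, adjusted p 0.00227), and TIMM9 rose (0.20, adjusted p 0.013). TIMM17A was not called without DMSO replicate 1, 2 or 3 (adjusted p 0.0591, 0.0574 and 0.0623) or ML60218 replicate 2 (0.054), and TIMM9 without DMSO replicate 2 (0.0688).

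The 5 other presequence and intermediate peptidases gave 1 higher and 2 lower calls after siPOLR3A. All genes gave 27.4% higher and 29.2% lower calls, and a list of 5 is too short to be read against that. METAP1D, which removes the first methionine in mitochondria, fell from 15.8 ± 0.558 to 10.7 ± 0.324 CPM (−0.56, adjusted p 1.94e-06). IMMP2L of the inner-membrane peptidase (0.23, adjusted p 0.0424) and XPNPEP3 (−0.10, adjusted p 0.036) passed narrowly: the call of IMMP2L was lost under 8 of the 14 alternatives, including without siControl replicate 2 (0.122) or 3 (0.107) or siPOLR3A replicate 1 (0.0974), 2 (0.0764) or 3 (0.0956), and that of XPNPEP3 under 7, including without siControl replicate 1 (0.142) or 2 (0.109) or siPOLR3A replicate 1 (0.0959) or 3 (0.155). With ML60218 3 were higher and 0 lower, among them IMMP1L (0.27, adjusted p 0.0438) and METAP1D (0.23, adjusted p 0.0275). The shares of all genes with ML60218 were 18.1% higher and 20.9% lower. The call of IMMP1L was lost without DMSO replicate 1 (adjusted p 0.149), 2 (0.0724) or 3 (0.0974) or ML60218 replicate 2 (0.143) or 3 (0.147), and that of METAP1D without DMSO replicate 1 (0.078), DMSO replicate 2 (0.115) or ML60218 replicate 2 (0.0835). With an offset for isoform length IMMP1L changed sign, to −0.07 (adjusted p 0.51). MIPEP, the peptidase that trims some presequence products further, stayed at 24.6 ± 0.971 and 24.6 ± 0.332 CPM in siControl and siPOLR3A (adjusted p 0.949).

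Among the 4 relatives of PITRM1 in the M16 family outside the processing peptidase, 3 were lower after siPOLR3A and 2 with ML60218, and 0 were higher, against 29.2% and 20.9% lower among all genes. A list of 4 is too short to be read against that background. NRDC, a cytosolic convertase, fell from 292 ± 5.35 to 249 ± 2.28 CPM after siPOLR3A (−0.23, adjusted p 1.04e-06; −0.15 with the isoform-length offset). UQCRC2, a core subunit of respiratory complex III that has kept the M16 fold, fell by 0.16 after siPOLR3A (adjusted p 9.12e-05) and by 0.14 with ML60218 (adjusted p 0.0104), and UQCRC1 fell by 0.11 with ML60218 (adjusted p 0.0354). With the upper quartile UQCRC2 fell by 0.10 after siPOLR3A. The UQCRC2 call with ML60218 was lost without DMSO replicate 3 (adjusted p 0.0502) and with total counts (−0.07, adjusted p 0.0906), and that of UQCRC1 under 9 of the 14 alternatives, including without DMSO replicate 1 (0.132), 2 (0.122) or 3 (0.0555) or ML60218 replicate 3 (0.0725). IDE, the insulin-degrading enzyme, which like PITRM1 degrades amyloid beta, varied widely between libraries, with means of 22 ± 5.95 and 18.3 ± 5.74 CPM in siControl and siPOLR3A (−0.26, adjusted p 0.567).

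Of the 8 other quality-control proteases and AAA+ factors, 1 was higher and 3 were lower after siPOLR3A. That is 50% of the list called, against 56.6% of all genes, and with ML60218 it was 12.5% against 39%. PARL, the rhomboid protease that cleaves PINK1, rose from 42.8 ± 1.1 to 53.4 ± 1.27 CPM (0.32, adjusted p 2.9e-06). OMA1, the stress-activated peptidase that cleaves OPA1, fell from 36.4 ± 2.07 to 27.7 ± 0.469 CPM (−0.39, adjusted p 7.27e-06), and CLPB, a disaggregase of the intermembrane space, from 94.6 ± 3.95 to 73.6 ± 1.54 CPM (−0.36, adjusted p 5.66e-07). With an offset for isoform length the change of CLPB was −0.19 (adjusted p 0.0106). With ML60218 AFG1L was the 1 gene called (0.32, adjusted p 0.0143), and without DMSO replicate 1 it was not (adjusted p 0.0581). Of the 3 scaffold proteins that hold the inner-membrane proteases, PHB1 fell after siPOLR3A (187 ± 5.84 to 154 ± 2.38 CPM, −0.28, adjusted p 1.02e-06) and PHB2 rose (0.17, adjusted p 6.32e-05). With ML60218 all 3 were lower, PHB1 by −0.22 (adjusted p 0.00505) and STOML2 by −0.15 (adjusted p 0.021). Among all genes 20.9% were lower with ML60218, and a list of 3 is too short to be read against that. STOML2 was not called without DMSO replicate 1, 2 or 3 (adjusted p 0.0579, 0.0668 and 0.071) or with total counts (−0.08, adjusted p 0.142).

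Of the 8 matrix chaperones, 2 were higher and 0 lower after siPOLR3A, and 1 was higher and 2 lower with ML60218. Together these were 25% and 37.5% of the list, against 56.6% and 39% of all genes. By direction, all genes gave 27.4% higher and 29.2% lower after siPOLR3A, and 18.1% and 20.9% with ML60218. After siPOLR3A GRPEL1 (0.14, adjusted p 0.000531) and HSPD1, the chaperonin HSP60 (0.09, adjusted p 0.00765), rose slightly. HSPD1 was not called without siPOLR3A replicate 2 (adjusted p 0.0512) and was at 0.15 with the upper quartile. With ML60218 GRPEL2, a nucleotide exchange factor of mitochondrial HSP70, rose from 123 ± 1.31 to 195 ± 19.5 CPM (0.67, adjusted p 0.000429), its paralog GRPEL1 fell from 87.3 ± 0.668 to 70.3 ± 0.87 CPM (−0.31, adjusted p 0.000229), and HSPE1, the co-chaperonin HSP10, fell from 291 ± 4.27 to 185 ± 32 CPM (−0.65, adjusted p 0.0185). HSPE1 was not called without DMSO replicate 1, 2 or 3 (adjusted p 0.0621, 0.0561 and 0.057).

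Of 15 substrates and partners of the proteases, 4 were higher and 8 lower after siPOLR3A, and 3 higher and 6 lower with ML60218. Among all genes 27.4% were higher and 29.2% lower after siPOLR3A, and 18.1% higher and 20.9% lower with ML60218. XIAP, which HTRA2 binds, rose after siPOLR3A (147 ± 2.98 to 201 ± 4.85 CPM, 0.46, adjusted p 4.35e-09) and with ML60218 (0.22, adjusted p 0.00784). OPA1, the fusion GTPase cut by YME1L1 and OMA1, fell from 231 ± 2.92 to 185 ± 1.92 CPM after siPOLR3A (−0.33, adjusted p 3.14e-08). PRELID1, a lipid-transfer protein degraded by YME1L1, rose after siPOLR3A (0.34, adjusted p 2.32e-08) and fell with ML60218 (−0.27, adjusted p 0.00108). ALAS1, the first enzyme of haem synthesis and a substrate of LONP1 and CLPXP, rose with ML60218 from 55.4 ± 1.06 to 70.5 ± 3.83 CPM (0.35, adjusted p 0.000543).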

How the data were processed

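The deposited table gave an estimated count and a TPM value for 194142 Ensembl transcript rows in each of 12 libraries. The authors' estimated counts have salmon's column layout, per the file headers, and the deposited TPM values sum to the same total in every library. Demultiplexing used bcl2fastq 2.20, with Trim Galore, DESeq2 and hg38 also named, per the submitters' processing notes; the quantifier's version and transcript release are not given in the sources used here. Rows were matched by stable identifier to GENCODE release 29 (158359 rows, 81.6%); unmatched rows held 8.37% to 8.97% of reads and stayed out. The table held no gene counts, so the estimates of a gene's rows were added, rounded and tested with edgeR 4.0.16 in R 4.3.3 (TMM scaling, filterByExpr with a minimum of 10, robust quasi-likelihood F-test, Benjamini-Hochberg adjustment over all genes or all transcripts tested, threshold 0.05), each experiment on its own 6 libraries and the difference of effects on all 12. CPM is TMM-scaled. The scripts were tested on simulated data. Depth of 37008325 to 49479476 reads per library limits the lowest transcripts. DESeq2 1.42.0, other scalings, no count filter, neighbouring rows, an isoform-length offset, a replicate block and leaving out each library were the alternatives.

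The members and all gene lists were chosen with earlier results of these data known. Named were all 10 proteases, POLR3A, the genes next to PITRM1, the 5 genes with the highest Pearson r to PITRM1 (mean log2 CPM of at least 3), PITRM1 rows of at least 0.5 TPM, and up to 2 called genes per list, direction and comparison; MIPEP, IDE and the marker genes were named besides. The values of 1 listed gene that this rule would name are not reported here.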

Additional observations from a re-analysis of the deposited data

Results flagged for a closer look

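For 6 of the 9 proteases tested, the change after siPOLR3A differed from the change with ML60218 in the test of the difference itself (edgeR, all 12 libraries, adjusted over all genes), against 50.9% of all genes tested. Expressed as siPOLR3A effect minus ML60218 effect on the log2 scale, the difference was 0.35 for PMPCA, 0.21 for LONP1 and 0.15 for SPG7, and −0.31 for CLPX, −0.22 for PMPCB and −0.20 for AFG3L2. PMPCA was the 1 protease called in opposite directions, 0.15 after siPOLR3A and −0.19 with ML60218. AFG3L2 was called in neither experiment, at −0.15 and 0.06. The difference was not called for AFG3L2 under 7 of the 20 alternatives (adjusted p up to 0.221): without siControl replicate 2 (0.0761), siControl replicate 3 (0.0761), siPOLR3A replicate 1 (0.0741), DMSO replicate 1 (0.0707), ML60218 replicate 2 (0.0502) or ML60218 replicate 3 (0.0624), and with the isoform-length offset. It was not called for SPG7 under 4: without siControl replicate 3 (0.0548), DMSO replicate 3 (0.052) or ML60218 replicate 2 (0.0745), and with the offset (0.153). For CLPP it was called under 4, without siControl replicate 1 (0.05), DMSO replicate 1 (0.0454) or ML60218 replicate 1 (0.0448) and with total counts (0.0477), and for HTRA2 under 1, with neighbouring transcripts (0.35, adjusted p 0.00043). Time, transfection and the cell name in the sample titles differ between the experiments and cannot be told apart from the treatment.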

How the results depend on the processing

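The PITRM1 level after siPOLR3A, −4.09, was −2.62 with neighbouring transcripts and −3.25 with an offset for isoform length, and ranged from −4.48 to −3.80 when 1 library was left out. The first adds rows whose groups overlap, with means of 23 CPM in siControl and 18 CPM in siPOLR3A. For the second the cause was not tested. The number of proteases called after siPOLR3A (7) ranged from 5 to 8 and the number with a difference (6) from 4 to 7. With ML60218 it was 3, but 1 with an isoform-length offset, 1 with a replicate block, and 1 to 3 when 1 library was left out (1 without DMSO replicate 1, 2 or 3). PITRM1 with ML60218 ranged from −0.12 to −0.06 when 1 library was left out, called at −0.12 without ML60218 replicate 2 (adjusted p 0.0265, against up to 0.847 elsewhere). DESeq2 called 1 PITRM1 transcript with ML60218, where edgeR called 0. Some changes reversed. IMMP1L with ML60218, called at 0.27, was −0.07 with the isoform-length offset (adjusted p 0.51). The others were not called: after siPOLR3A YME1L1 was 0.03 by the upper quartile and 0.02 by total counts; with ML60218 YME1L1 was 0.01 and PMPCB 0.01 with total counts, HTRA2 was −0.09 with neighbouring transcripts, and SPG7 was 0.03 (upper quartile), 0.06 (total counts), 0.03 (offset), 0.01 (without ML60218 replicate 2) and 0.00 (without ML60218 replicate 3), within −0.05 to 0.01 when 1 library was left out. The YME1L1 difference was −0.01 with the offset. The cause was not tested. Called genes were higher in 48.4% of cases after siPOLR3A, 58.7% with the upper quartile and 57% with total counts; with ML60218 these were 46.4%, 58.6% and 67%. Same-numbered libraries did not deviate together (correlations −0.022, 0.074 and −0.072 in the siRNA experiment, 0.007, 0.059 and −0.043 in the other), so the numbers do not pair them, and in each experiment 2 of 6 libraries correlated best with their own number; with the replicate block 8 proteases were called after siPOLR3A, 1 with ML60218 and 6 for the difference. Under that block AFG3L2 was called after siPOLR3A (−0.14, adjusted p 0.00627), IMMP2L was not (0.0671), and with ML60218 LONP1 (0.0592), CLPP (0.0638), METAP1D (0.0519) and UQCRC1 (0.0541) were not. Of 66 single genes read in a comparison, 37 kept direction and call throughout. Depth limits transcripts of a few reads, whose estimates can be 0.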
